A study of Mus musculus with 24 samples.

Results

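The mitochondrial ribosomal protein genes encode proteins of the ribosome inside mitochondria. They were taken as every row of the deposited abundance table whose symbol is Mrpl or Mrps followed by a number and at most 1 letter. The rule found 83 of 48544 rows. Of these, 78 are genes and 5 are rows that the reference annotation names as pseudogenes. Among the 78 genes, 51 encode proteins of the large subunit and 26 proteins of the small subunit. Mrps36 was placed in neither, because its product belongs to the oxoglutarate dehydrogenase complex. Mrps18a and Mrps30 carry small subunit names, and their products sit in the large subunit.

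Polyadenylated RNA was sequenced from C2C12, a wild type mouse myoblast line that fuses into myotubes when serum is lowered. The 24 libraries form 6 groups of 4. Day 7 myotubes in 2% fetal bovine serum were set against day 0 myoblasts in 10% serum. Myotubes given 100 µM dexamethasone for 24 h, to day 8, were set against vehicle controls of the same age, and so were myotubes given it for 72 h, to day 10. All treated and vehicle groups were in 2% serum, and the labels give 1% ethanol for the vehicle medium alone. Dexamethasone is a synthetic glucocorticoid used to bring on atrophy of cultured myotubes. All groups come from 1 cell line. Whether replicates came from separate cultures is not stated in the labels, and the p-values then refer to variation among these libraries, which could be technical.

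Mitochondria translate their own small genome on a dedicated ribosome, the mitoribosome. Its rRNAs are transcribed inside the organelle, whereas nearly all of its proteins are encoded in the nucleus and imported. It makes core subunits of the respiratory chain, on which muscle depends for sustained work. Some mitoribosomal proteins descend from bacterial ribosomal proteins, and others have no bacterial counterpart.

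Promoter sequences are shown for 5 genes chosen after their values were seen. Mrpl33, Mrps21 and Mrpl52 were higher in differentiation and lower with dexamethasone at 24 h, and Mrps18b and Mrps6 were higher with dexamethasone at 72 h. Each is the RefSeq window of 300 bases around an annotated start in build GRCm38.p6, read 5′ to 3′ on the gene's strand. The windows lie at chr5:31613701-31614000 on the plus strand (Mrpl33), chr3:95871465-95871764 on the minus strand (Mrps21), chr14:54426659-54426958 on the plus strand (Mrpl52), chr17:35916391-35916690 on the minus strand (Mrps18b) and chr16:92058086-92058385 on the plus strand (Mrps6). Capitals mark matches, on either strand, to the core letters GCATGCGC of NRF1, CCGGAAG of the ETS factor GABPA and AAGATGGC of YY1, factors known for nuclear genes of mitochondria.
Mrpl33: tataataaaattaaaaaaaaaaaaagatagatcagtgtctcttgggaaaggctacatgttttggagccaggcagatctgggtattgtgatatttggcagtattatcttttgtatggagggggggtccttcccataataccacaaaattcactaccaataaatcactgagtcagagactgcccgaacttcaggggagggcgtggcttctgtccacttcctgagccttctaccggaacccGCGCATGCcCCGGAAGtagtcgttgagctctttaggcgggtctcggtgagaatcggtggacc
Mrps21: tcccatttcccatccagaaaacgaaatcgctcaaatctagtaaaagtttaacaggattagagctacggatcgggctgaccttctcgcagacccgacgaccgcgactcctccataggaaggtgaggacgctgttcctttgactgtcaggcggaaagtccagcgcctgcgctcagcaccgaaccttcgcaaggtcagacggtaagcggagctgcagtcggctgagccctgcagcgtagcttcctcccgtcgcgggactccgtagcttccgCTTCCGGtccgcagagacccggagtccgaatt
Mrpl52: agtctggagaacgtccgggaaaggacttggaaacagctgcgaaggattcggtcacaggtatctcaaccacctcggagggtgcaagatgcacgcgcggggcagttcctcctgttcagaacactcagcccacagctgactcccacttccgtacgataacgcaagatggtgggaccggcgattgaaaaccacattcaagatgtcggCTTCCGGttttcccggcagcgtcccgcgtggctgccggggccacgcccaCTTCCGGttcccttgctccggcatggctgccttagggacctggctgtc
Mrps18b: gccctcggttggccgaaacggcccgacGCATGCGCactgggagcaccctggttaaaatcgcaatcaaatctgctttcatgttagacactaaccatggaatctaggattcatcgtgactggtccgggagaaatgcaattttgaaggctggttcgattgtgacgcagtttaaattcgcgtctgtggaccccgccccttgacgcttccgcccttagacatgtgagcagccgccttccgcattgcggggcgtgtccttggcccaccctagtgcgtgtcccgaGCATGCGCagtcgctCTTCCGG
Mrps6: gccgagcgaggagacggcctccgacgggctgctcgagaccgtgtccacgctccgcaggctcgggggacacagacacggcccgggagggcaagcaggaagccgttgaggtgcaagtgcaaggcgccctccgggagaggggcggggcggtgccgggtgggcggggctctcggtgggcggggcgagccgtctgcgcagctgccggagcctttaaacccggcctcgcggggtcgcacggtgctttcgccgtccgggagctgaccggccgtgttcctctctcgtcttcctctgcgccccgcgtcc
Mrpl33 held 1 NRF1 and 1 ETS match, Mrps21 held 1 ETS match, Mrpl52 held 2 ETS matches, and Mrps18b held 2 NRF1 matches and 1 ETS match. Mrps6 held none of these 3 patterns.

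RefSeq windows were found for 69 of the 78 genes, and 8 patterns of letters were searched on both strands. The ETS core CCGGAAG was in 37.7% of the mitoribosomal genes with a window, against 18.5% of tested genes and 9.93% of all genes, where tested genes are the 11454 with a window that passed the filter on low values and all genes are the 27025 with a window. The YY1 core AAGATGGC was in 17.4%, against 4.9% of tested genes and 3.19% of all genes. The NRF1 core GCATGCGC was in 11.6%, against 5.58% of tested genes and 3.05% of all genes. These 3 patterns were the only ones of the 8 at more than 1.5 times the share in tested genes. The SP1 box GGGCGG was in 49.3%, against 65.4% of tested genes and 38.2% of all genes. The E-box CACGTG was in 7.25%, against 11.3% of tested genes and 8.09% of all genes, and TATAAA was in 7.25%, against 9.47% of tested genes and 15.7% of all genes. For the glucocorticoid receptor, the half-site pair ACANNNTGT was in 4.35%, against 5.38% of tested genes and 7.9% of all genes. A longer form of that pair, which asks for 1 further C, was in 2.9%, against 2.72% of tested genes and 3.6% of all genes. The longer form was searched first, and the shorter one was added after its result was seen. A match is a description of letters, not a bound site.

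Day 7 and day 0 libraries carried the markers of their labels. Every one of 7 myotube markers was higher, and every one of 6 markers of proliferating myoblasts was lower, in day 7 myotubes than in day 0 myoblasts. With dexamethasone at 24 h none of those 13 markers was called. At 72 h all 6 proliferation markers were higher with dexamethasone, their summed level being 159 to 411 TPM in treated and 14.0 to 57.4 TPM in vehicle libraries. The summed level of the 7 myotube markers overlapped at 72 h, at 18616 to 23858 TPM in treated and 16695 to 23067 TPM in vehicle libraries. TPM is transcript abundance scaled by transcript length and by library. Of the 5 adipocyte markers 3 passed the filter, and 3 were higher with dexamethasone at 24 h and 2 at 72 h. Of 4 fibroblast markers, 1 was higher and 2 lower with dexamethasone at 24 h, and 3 were lower at 72 h. Of 4 markers of satellite or reserve cells, 3 were lower in day 7 myotubes than in day 0 myoblasts. With dexamethasone 2 of the 4 were higher and 0 lower at 24 h, and 2 higher and 1 lower at 72 h. Their summed level was 126 to 165 TPM in day 7 myotubes and 228 to 318 TPM in day 0 myoblasts. It was 223 to 251 TPM with dexamethasone and 111 to 135 TPM with vehicle at 24 h, and 281 to 409 TPM with dexamethasone and 105 to 167 TPM with vehicle at 72 h, so none of these pairs of groups overlaps. Of 4 osteoblast markers 1 passed the filter, and it was called in none of the 3 comparisons. The part of these cell states in the values below was not tested. In bulk RNA, fewer cells of a type and less RNA per cell cannot be told apart. The files keep no read counts, so depth is unknown, and 12428 to 13030 genes per library reached 1 TPM.

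All 78 genes were above 0 TPM in all 24 libraries, and all 78 passed the filter. Mean TPM over the 24 libraries ran from 10.4 to 449 with a median of 65.5, and 20 genes reached 100 TPM. The most abundant were Mrpl33 at 449 TPM, Mrpl52 at 291 TPM, Mrps21 at 249.9 TPM, Mrpl14 at 207 TPM and Mrpl42 at 191 TPM. The least abundant were Mrpl23 at 10.4 TPM, Mrpl46 at 21.3 TPM, Mrpl1 at 21.3 TPM, Mrpl57 at 22.1 TPM and Mrpl48 at 22.7 TPM. Mrpl23 and Mrpl48 have copies listed as pseudogenes. The row Mrpl23-ps1 averaged 109 TPM and Mrpl48-ps 10.5 TPM, so reads may have been split and the levels and calls of Mrpl23 and Mrpl48 are uncertain. Mrpl23-ps1 was called higher in day 7 myotubes than in day 0 myoblasts (ratio 1.29, adjusted p = 0.00527 in limma). Mrpl23 was not called there (adjusted p = 0.248 in limma). The 3 pseudogene rows of Mrps36 were at or near 0.

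The spread over the groups is given for these genes alone, without a value for all tested genes. The highest group mean was 1.05 to 2.15 times the lowest, with a median of 1.33 over the 78 genes, and the median coefficient of variation within groups was 8.66%. The summed level of the 78 genes was 6641, 7402, 6404 and 7014 TPM in day 7 myotubes, against 5685, 6213, 5799.8 and 6196 TPM in day 0 myoblasts, and these groups do not overlap. At 24 h it was 6008, 6136, 6230.4 and 5777 TPM with dexamethasone, against 7514, 6368, 7442 and 6548 TPM with vehicle, again without overlap. Vehicle replicates 2 and 4 lie nearer to the treated libraries than vehicle replicates 1 and 3 do. The same libraries differ in the summed mRNA of the 13 mitochondrially encoded proteins, at 98086 and 89525 TPM in vehicle replicates 2 and 4, against 68469 and 63521 TPM in vehicle replicates 1 and 3. Among treated libraries, replicate 4 had the highest such sum, 102881 TPM, and the lowest sum over the 78 genes, and the part of these transcripts was not tested. At 72 h it was 5975, 6461, 5546 and 6472 TPM with dexamethasone, against 6482, 6111, 5854 and 6328 TPM with vehicle, and these groups overlap. The ratio of summed large to summed small subunit mRNA was 2.37 ± 0.0307 in day 7 myotubes and 2.20 ± 0.0307 in day 0 myoblasts (SD, n = 4 each). It was 2.28 ± 0.0367 with dexamethasone and 2.42 ± 0.0192 with vehicle at 24 h, and 2.32 ± 0.0434 and 2.38 ± 0.0212 at 72 h.

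**Figure D1:**
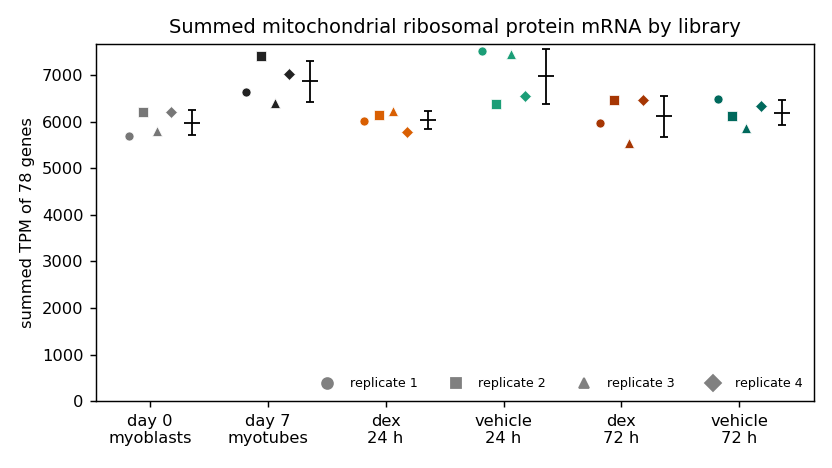
Summed TPM of the 78 mitochondrial ribosomal protein genes (vertical axis) in each library, by group (horizontal axis), with black dashes and bars for the mean ± SD of 4 libraries. The 4 day 7 libraries lie above all 4 day 0 libraries, and the 4 libraries with dexamethasone for 24 h lie below all 4 of their vehicle libraries.

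**Figure D2:**
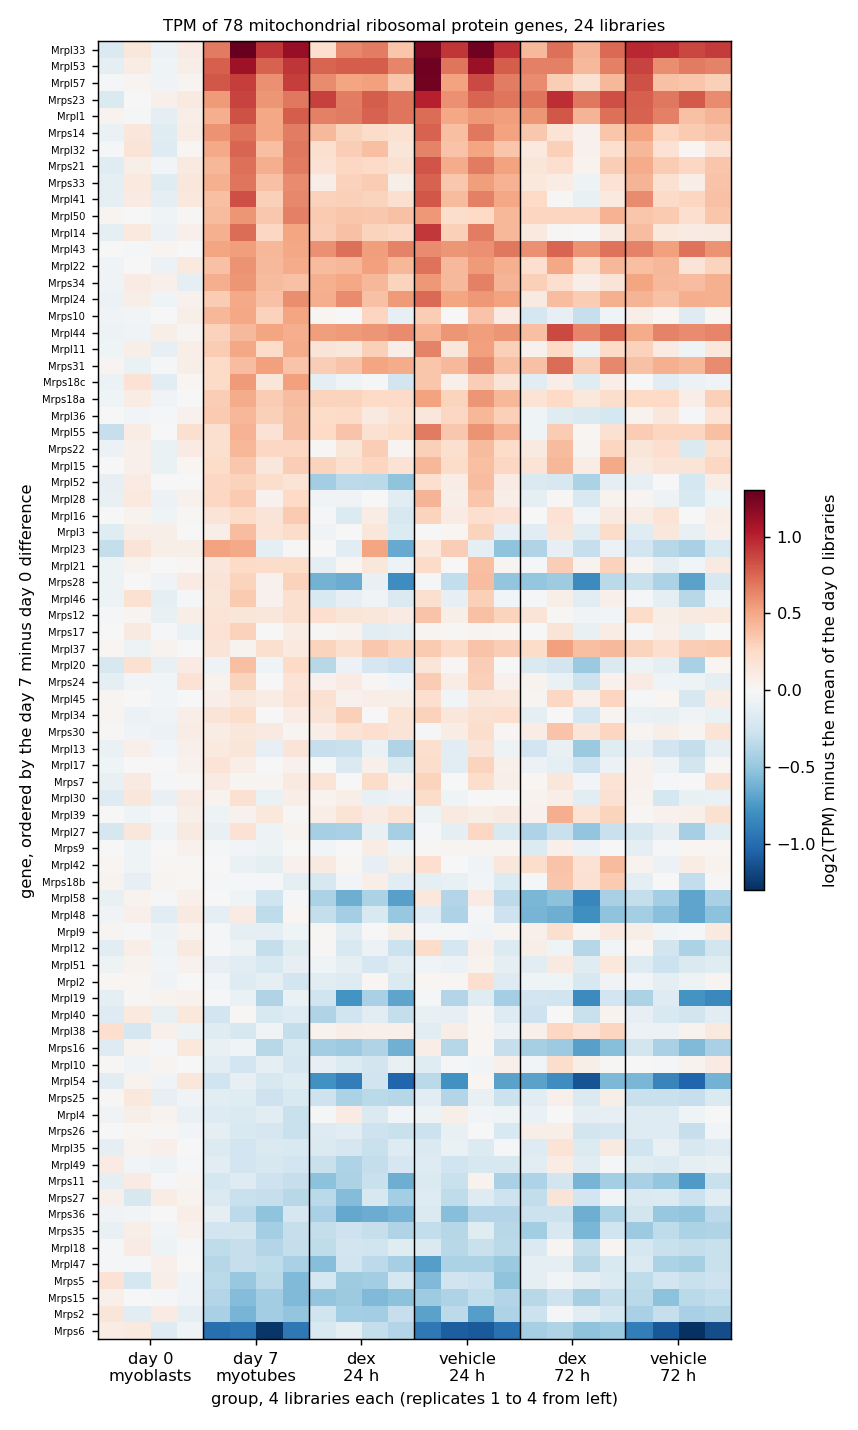
Each row is 1 of the 78 genes and each column 1 of the 24 libraries, with colour for the log2 TPM of the gene relative to its day 0 mean, as the colour bar states. Mrpl33, at 553 TPM in day 7 myotubes and 270.5 TPM in day 0 myoblasts, and Mrps6, at 67.1 TPM and 137 TPM, are the members with the largest differences up and down.

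The first comparison, between day 7 myotubes and day 0 myoblasts, asks how these genes differ after differentiation; serum differs between the groups as well. Mitoribosomal genes were called mostly upward. Of 78 genes, 32 were higher and 6 lower at an adjusted p below 0.05 in limma, where 30.5% of all 16257 tested genes were called higher and 29.8% lower. The median difference was 0.15 for the 78 genes and 0.01 for all genes, on the log2 scale of the authors' normalised table. Differences on that scale are smaller than those on log2 TPM for most named genes. On log2(TPM + 0.1), 31 were higher and 15 lower, where 25.8% of all genes were called higher and 32.5% lower. The large subunit had 23 of 51 genes higher and 2 lower, and the small subunit had 9 of 26 higher and 4 lower.

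Mrpl33, the counterpart of bacterial L33, had 432, 678, 511 and 591 TPM in day 7 myotubes, against 237, 299, 256 and 289.8 TPM in day 0 myoblasts. All 4 myotube libraries were above all 4 myoblast libraries, with a ratio of means of 2.04 (log2 difference 0.75 ± 0.11 SE, limma adjusted p = 3.13e-06). Mrpl53, a large subunit protein, had 159.6, 200.2, 158 and 178 TPM in day 7 myotubes, against 85.8, 99.7, 89.5 and 98.2 TPM in day 0 myoblasts. Its libraries do not overlap either (ratio 1.86, adjusted p = 9.59e-06 in limma). Mrpl57 had 26.6 ± 2.59 TPM in day 7 myotubes, against 15.2 ± 0.407 TPM in day 0 myoblasts (SD, n = 4 each, ratio 1.75, limma adjusted p = 0.000141). The ratio was 1.58 for Mrpl1, the counterpart of bacterial L1. In the small subunit it was 1.60 for Mrps23, 1.53 for Mrps14 and 1.49 for Mrps21. Mrps21, the counterpart of bacterial S21, had 265, 324, 271 and 314 TPM in day 7 myotubes, against 176, 207, 192 and 213 TPM in day 0 myoblasts, without overlap (adjusted p = 9.41e-05 in limma). Of the 32 higher genes, 29 (90.6%) had libraries that do not overlap between the groups, against 78.7% of all genes called higher.

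The 6 lower genes were Mrps6, Mrps2, Mrps15, Mrps5, Mrpl47 and Mrpl18, and in none of the 6 did the libraries overlap, where 81.4% of all genes called lower had no overlap. Mrps6, the counterpart of bacterial S6, had 69.1, 71.2, 56.5 and 71.5 TPM in day 7 myotubes, against 146, 149, 121 and 131 TPM in day 0 myoblasts. Its ratio of means was 0.491, the lowest of the 78 genes here (log2 difference -0.65 ± 0.08 SE, limma adjusted p = 7.2e-07). Mrps2, the counterpart of bacterial S2, had 21.4, 18.8, 21.0 and 20.1 TPM in day 7 myotubes, against 32.1, 25.9, 30.9 and 26.5 TPM in day 0 myoblasts (ratio 0.706, adjusted p = 1.78e-05 in limma). The ratio was 0.711 for Mrps15, 0.733 for Mrps5, 0.782 for Mrpl47 and 0.793 for Mrpl18.

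**Figure D3:**
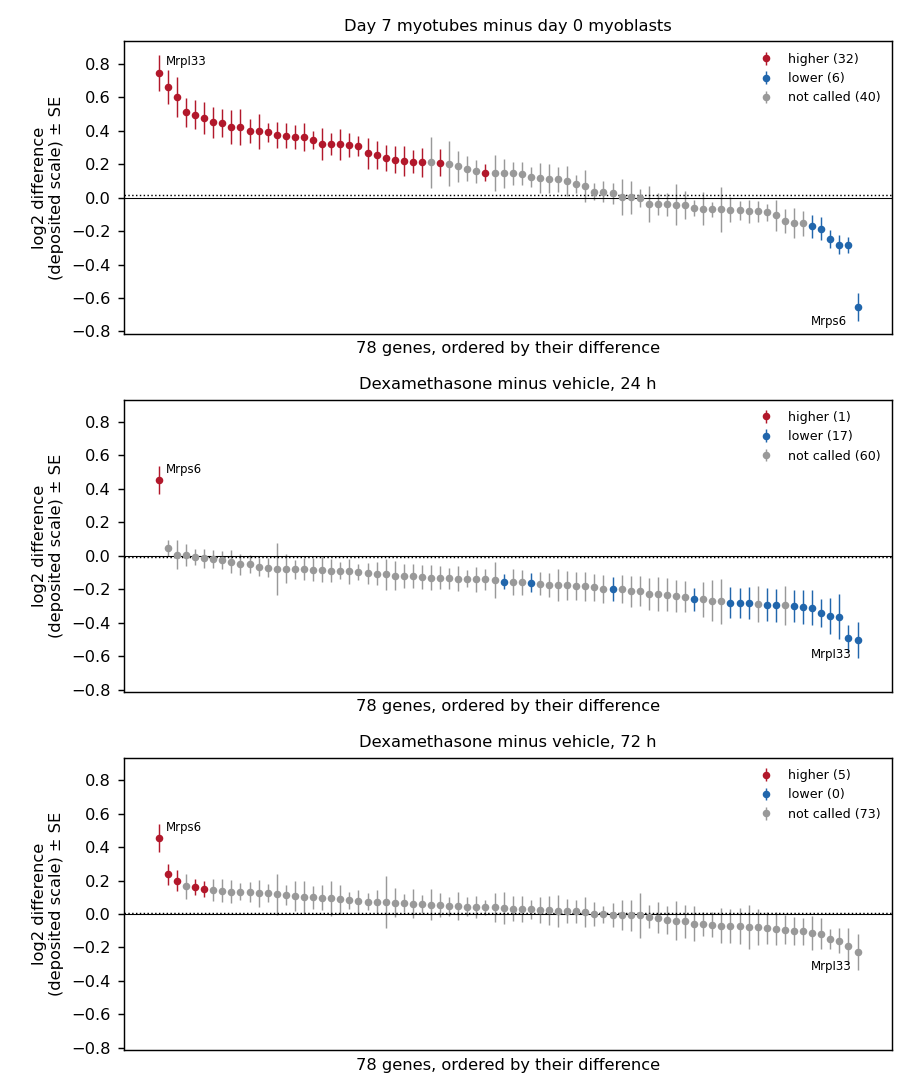
Log2 differences on the deposited scale ± SE of the 78 genes in 3 comparisons, with colour for genes called higher or lower and a dotted line for the median of all genes tested. In differentiation 32 genes were higher and 6 lower, with dexamethasone at 24 h 1 was higher and 17 lower, and at 72 h 5 were higher and 0 lower.

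Dexamethasone and vehicle were compared at 24 h for the early response. Mitoribosomal genes were called mostly downward: 17 of 78 were lower and 1 higher, where 12.2% of all tested genes were called lower and 13.2% higher in limma. On log2(TPM + 0.1), 14 were lower and 1 higher, where 7.61% of all genes were called lower and 14.0% higher. The median difference was -0.15 for the 78 genes and -0.01 for all genes, and 74 of the 78 estimates were below 0. The large subunit had 10 of 51 lower and 0 higher, and the small subunit 7 of 26 lower and 1 higher. The number of lower genes rests on single libraries. It was 5 without dexamethasone replicate 4, without vehicle replicate 1 or without vehicle replicate 3, 11 without dexamethasone replicate 1 or 2, and 35 without vehicle replicate 2. The share of all genes called in each of these fits is not given. Whether the changes are particular to mitoribosomal genes was therefore not tested.

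Mrpl33 had 314, 414, 426 and 345 TPM with dexamethasone, against 623, 514, 645 and 521 TPM with vehicle. All treated libraries were below all vehicle libraries (ratio 0.651, log2 difference -0.50 ± 0.11 SE, limma adjusted p = 0.00162). Mrpl52, a large subunit protein without a bacterial homologue, had 216, 233, 232 and 206 TPM with dexamethasone, against 341, 315, 389 and 317 TPM with vehicle, again without overlap. Its ratio was 0.650 (log2 difference -0.49 ± 0.08 SE, limma adjusted p = 0.000104). Mrps21 had 223, 237, 233 and 225 TPM with dexamethasone, against 346, 274, 313 and 282 TPM with vehicle, also without overlap (ratio 0.756, adjusted p = 0.00468 in limma). Mrpl58, a peptidyl-tRNA hydrolase built into the large subunit, had 64.4, 55.2, 64.3 and 52.6 TPM with dexamethasone, against 93.9, 65.7, 92.0 and 67.5 TPM with vehicle. These libraries do not overlap, but vehicle replicates 2 and 4 stand close to the treated range (ratio 0.741, adjusted p = 0.0177 in limma). Mrpl20, the counterpart of bacterial L20, had 148 ± 12.5 TPM with dexamethasone, against 189 ± 20.4 TPM with vehicle (SD, n = 4 each, adjusted p = 0.0357 in limma). Mrps28 had 38.8 ± 8.92 TPM with dexamethasone, against 52.8 ± 15.1 TPM with vehicle, and its libraries overlap (adjusted p = 0.0489 in limma, but 0.0612 once replicate number was a block). Of the 17 lower genes, 11 (64.7%) had libraries that do not overlap, against 59.0% of all genes called lower, and 14 were lower on log2(TPM + 0.1) too. Of the same 17, 9 had been higher in day 7 myotubes than in day 0 myoblasts, Mrpl33, Mrpl52 and Mrps21 among them. These are 52.9% of the 17, where 42.9% of all genes lower at 24 h had been higher in day 7 myotubes. They are 28.1% of the 32 members higher in day 7 myotubes, where 17.2% of all genes higher there were lower at 24 h.

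**Figure D4:**
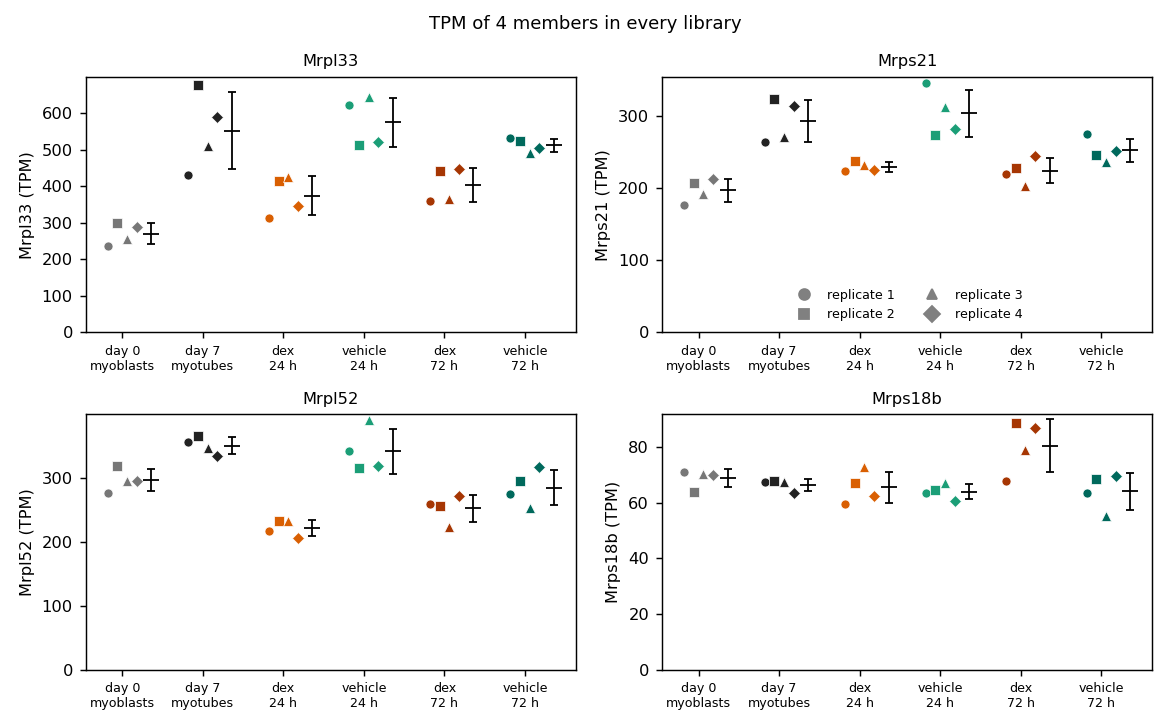
TPM (vertical axes) of Mrpl33, Mrps21, Mrpl52 and Mrps18b in each library, by group, with black dashes and bars for the mean ± SD of 4 libraries. Mrpl33, Mrps21 and Mrpl52 were lower with dexamethasone than with vehicle at 24 h without overlap, and Mrps18b averaged 80.6 TPM with dexamethasone and 64.2 TPM with vehicle at 72 h.

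Mrps6 was the 1 member called higher with dexamethasone at 24 h. It had 119, 124, 109.6 and 105 TPM with dexamethasone, against 71.7, 65.0, 63.8 and 69.4 TPM with vehicle, without overlap (ratio 1.69, adjusted p = 0.000461 in limma). At 72 h it had 101, 104, 94.9 and 97.7 TPM with dexamethasone, against 72.9, 63.6, 56.0 and 61.2 TPM with vehicle, again without overlap (ratio 1.57, adjusted p = 0.000273 in limma). No other member was called at both times.

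Annotated exons of Mrps6 overlap those of Slc5a3, a sodium-coupled transporter of myo-inositol, on the same strand. Slc5a3 was looked up after the values of Mrps6 were seen. It had 2.14, 1.36, 2.03 and 1.78 TPM in day 7 myotubes, against 14.8, 11.0, 11.0 and 9.73 TPM in day 0 myoblasts, a group fully below the other. At 24 h it had 30.6, 32.6, 16.1 and 39.9 TPM with dexamethasone, against 2.62, 3.09, 0.992 and 2.52 TPM with vehicle, and at 72 h 14.6, 10.3, 20.1 and 10.8 TPM with dexamethasone, against 5.03, 4.00, 3.28 and 2.43 TPM with vehicle. Treated libraries were above vehicle libraries at both times. Slc5a3 was thus called in the same direction as Mrps6 in all 3 comparisons (limma adjusted p = 1.61e-07, 8.56e-09 and 2.85e-05). For the response at 72 h minus that at 24 h the 2 genes differed in their calls. Slc5a3 was called lower (log2 difference -1.18, limma adjusted p = 0.00786), and Mrps6 was not called (0.0036, limma adjusted p = 0.989). How reads were divided between Mrps6 and Slc5a3 is not given in the sources used here, so the values of Mrps6 are uncertain, and the part of Slc5a3 in them was not tested. In all, 22 of the 78 genes have an exon overlapping one of a gene that averages 1 TPM or more, 4 of them on the same strand. Mrpl18, Mrpl44, Mrpl47, Mrpl53 and Mrpl36 are among the 22, and no source used here states that counting used strand. Among the 56 genes without such an overlap, 23 were higher and 3 lower in differentiation, where 30.5% of all tested genes were higher and 29.8% lower. With dexamethasone at 24 h 15 of the 56 were lower and 0 higher, where 12.2% of all genes were lower and 13.2% higher, and at 72 h 4 were higher and 0 lower, where 15.2% were called in each direction.

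**Figure D5:**
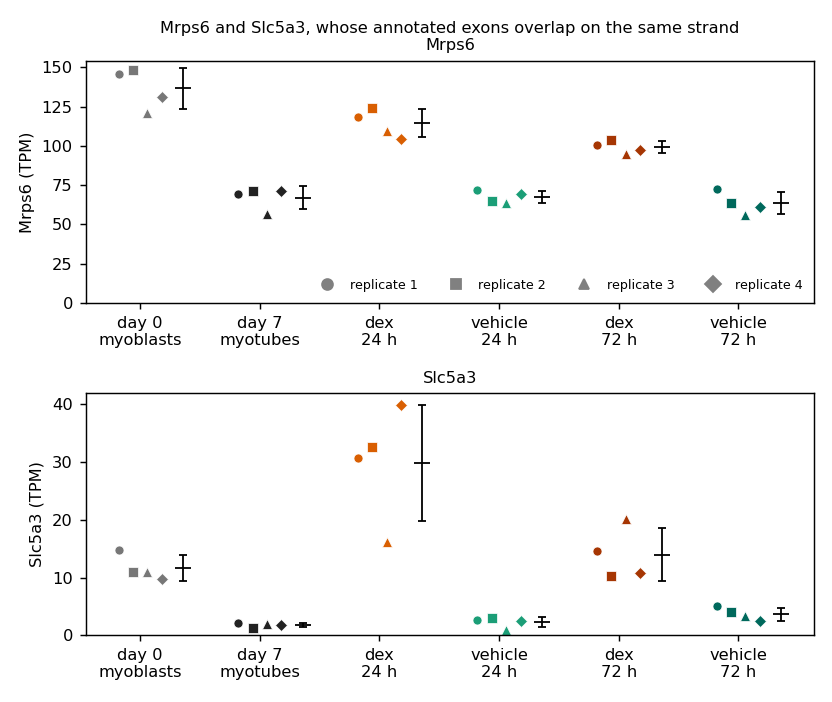
TPM (vertical axes) of Mrps6 and Slc5a3 in each library, by group, with black dashes and bars for the mean ± SD of 4 libraries. Both genes were lower in day 7 than in day 0 libraries and higher with dexamethasone than with vehicle at 24 h and 72 h, without overlap in any of the 3 pairs.

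At 72 h few mitoribosomal genes differed between dexamethasone and vehicle. Of 78, 5 were higher and 0 lower, where 15.2% of all tested genes were called higher and 15.2% lower in limma. At an unadjusted p below 0.05, 11 were higher and 3 lower, where 20.2% of all genes were higher and 19.7% lower. On log2(TPM + 0.1), 5 were higher and 3 lower, where 11.5% of all genes were called higher and 15.1% lower. These are not the same 5 genes: of the 5 higher on the deposited scale, 3 were called higher on log2(TPM + 0.1) too. The median difference was 0.03 for the 78 genes and 0.01 for all genes. Besides Mrps6, the higher genes were Mrps18b, Mrpl42, Mrps2 and Mrpl38. Mrps18b, 1 of 3 proteins related to bacterial S18, had 67.9, 88.6, 79.0 and 86.9 TPM with dexamethasone, against 63.4, 68.7, 55.1 and 69.6 TPM with vehicle. Treated replicate 1 lies within the vehicle range (ratio 1.26, adjusted p = 0.00597 in limma). Mrpl42, a large subunit protein without a bacterial homologue, had 212, 235, 206 and 242 TPM with dexamethasone, against 188, 172, 194 and 187 TPM with vehicle, without overlap (ratio 1.21, adjusted p = 0.0193 in limma). Mrps2 had 25.6 ± 2.04 TPM with dexamethasone, against 22.0 ± 0.877 TPM with vehicle (SD, n = 4 each, adjusted p = 0.0106 in limma), and Mrpl38 had 58.2 ± 3.92 TPM with dexamethasone, against 50.9 ± 3.56 TPM with vehicle (adjusted p = 0.0241 in limma). The libraries of Mrpl38 overlap. Without both replicate 1 libraries at 72 h the count was again 5 higher and 0 lower. It was 9 higher without dexamethasone replicate 3, and 3 higher without dexamethasone replicate 4 or vehicle replicate 2. Shares of all genes called in these fits are not given.

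On the deposited scale 0 of the 78 genes were called lower at 72 h, where 15.2% of all tested genes were. None of the genes lower at 24 h was therefore called lower at 72 h on that scale. On log2(TPM + 0.1), 3 members were lower at 72 h. Mrpl33 had 361, 443, 366 and 447 TPM with dexamethasone, against 532, 524, 493 and 506 TPM with vehicle, without overlap but not called (log2 difference -0.23 ± 0.11 SE, limma adjusted p = 0.117). Mrpl52 had 259, 256, 222 and 271 TPM with dexamethasone, against 274, 294, 252 and 317 TPM with vehicle, with overlap (log2 difference -0.10 ± 0.08 SE, limma adjusted p = 0.354). The difference between the times was tested directly, as the response at 72 h minus the response at 24 h. It was positive for 5 of 78 genes and negative for 0, where 5.56% of all tested genes were called positive and 5.77% negative in limma. With log2(TPM + 0.1) it was positive for Mrpl52, Mrpl42 and Mrps25, where 3.93% of all genes were called positive and 6.93% negative. The 5 genes were Mrpl52 (0.39 on the log2 scale), Mrpl42 (0.30), Mrps18b (0.29), Mrpl35 (0.27) and Mrpl10 (0.20). Their adjusted p-values in limma lay between 0.0269 and 0.0495, and that of Mrpl10 was 0.0551 once replicate number was a block. Mrps18b, Mrpl35 and Mrpl10 were not called on log2(TPM + 0.1), where their adjusted p in limma was 0.122, 0.114 and 0.260. None of the 78 genes was called without dexamethasone 24 h replicate 4, vehicle 24 h replicate 1 or dexamethasone 72 h replicate 4, and 13 were called without vehicle 24 h replicate 2. Shares of all genes called in these fits are not given. The median difference between the responses over the 78 genes was 0.19.

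The vehicle groups were set against day 7 myotubes and each other to describe time in culture. Between 24 h vehicle and day 7, 0 of 78 genes were higher and 0 lower, where 0.0984% of all tested genes were called higher and 0.111% lower in limma. At an unadjusted p below 0.05, 4 were higher and 0 lower, where 7.22% of all genes were higher and 8.50% lower. With log2(TPM + 0.1), limma called 0 higher and 0 lower, where 0.0131% of all genes were called higher and 0.0131% lower. Between 72 h and 24 h vehicle, 4 were lower and 0 higher, where 1.69% of all tested genes were called lower and 2.67% higher. On log2(TPM + 0.1), 1 was lower, where 0.334% of all genes were called lower and 1.44% higher. The 4 genes were Mrpl28 with a ratio of 0.802, Mrpl34 with 0.813, Mrps18a with 0.854 and Mrpl36 with 0.866. Mrpl34, the counterpart of bacterial L34, had 78.2, 77.8, 80.5 and 78.2 TPM at 72 h, against 103, 92.1, 95.7 and 96.7 TPM at 24 h, without overlap (adjusted p = 0.0318 in limma). None was lower without vehicle 24 h replicate 1 or 3 or without vehicle 72 h replicate 1, 2 or 3, and 31 were lower without vehicle 24 h replicate 2. Shares of all genes called in these fits are not given, so whether this is particular to mitoribosomal genes was not tested. The 24 h vehicle libraries serve this comparison, the 24 h response and the difference between responses.

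Several members with particular roles were called in no comparison. Mrpl12, which also binds the mitochondrial RNA polymerase, had 117 ± 10.3 TPM in day 7 myotubes and 129 ± 11.0 TPM in day 0 myoblasts (SD, n = 4 each). It had 118 ± 10.8 TPM with dexamethasone and 128 ± 19.3 TPM with vehicle at 24 h, and 121 ± 15.1 TPM and 112 ± 14.2 TPM at 72 h. Mrps12, the counterpart of the bacterial decoding protein S12, Mrps7, Mrpl45, Mrps30 and Mrps36 were likewise not called. For Mrps12 and Mrps36 this depends on the fit. In differentiation Mrps12 had an adjusted p of 0.0518 in limma, 0.0495 once replicate number was a block and 0.0339 on log2(TPM + 0.1), with a log2 difference of 0.17. Mrps36 was lower in differentiation on log2(TPM + 0.1) (limma adjusted p = 0.0105, against 0.155 on the deposited scale). With dexamethasone at 24 h Mrps36 was lower with the block (limma adjusted p = 0.0449, against 0.0873 without it). Mrpl44, a large subunit protein with a ribonuclease-like fold, was higher in differentiation, with 32.3 ± 2.05 TPM in day 7 myotubes, against 24.0 ± 1.13 TPM in day 0 myoblasts (SD, n = 4 each, ratio 1.34, adjusted p = 1.01e-05 in limma). Mrpl11, the counterpart of bacterial L11, was higher too, with 26.2 ± 2.29 TPM in day 7 myotubes, against 20.0 ± 1.37 TPM in day 0 myoblasts (adjusted p = 0.00651 in limma). The 3 proteins related to S18 had different calls, although differences between genes were not tested. Mrps18a and Mrps18c were higher in differentiation and lower with dexamethasone at 24 h, and Mrps18b was called in neither. In all, 28 of the 78 genes (35.9%) were called in none of the 6 comparisons, against 24.4% of all tested genes. Of these 28, Mrps12 and Mrps17 were called in differentiation and Mrps36 at 24 h once replicate number was a block (limma adjusted p = 0.0315 for Mrps17). The 28 are by the deposited scale, and further genes among them were called on log2(TPM + 0.1). Examples, chosen after values were seen, are Mrpl4, lower in differentiation (limma adjusted p = 0.0142), and Mrps25, positive for the difference between responses (limma adjusted p = 0.0371).

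Other genes of mitochondrial translation are given beside these. Their counts stand against the shares of all tested genes called, which were 30.5% higher and 29.8% lower in differentiation, 13.2% and 12.2% with dexamethasone at 24 h, and 15.2% and 15.2% at 72 h. Of 5 mitoribosomal proteins with other symbols, 3 were higher in day 7 myotubes than in day 0 myoblasts, namely Chchd1 (ratio 1.64), Aurkaip1 (1.51) and Ptcd3 (1.28). None of the 5, Dap3 and Gadd45gip1 among them, was called with dexamethasone in limma. At an unadjusted p below 0.05, 3 were lower at 24 h, where 19.0% of all tested genes were lower and 18.8% higher, and 1 was higher at 72 h, where the share of all genes was 20.2%. Of 28 genes listed as assembly and rRNA factors, 12 were higher and 4 lower in day 7 myotubes than in day 0 myoblasts, 0 higher and 3 lower with dexamethasone at 24 h, and 1 higher and 2 lower at 72 h. The 28 include Sirt7, whose product is a nuclear deacetylase. Ngrn, which binds the large subunit rRNA, had 41.1 TPM in day 7 myotubes, against 24.6 TPM in day 0 myoblasts. Of 15 translation factors, 6 were higher and 6 lower in day 7 myotubes than in day 0 myoblasts, 1 higher and 1 lower with dexamethasone at 24 h, and 3 higher and 1 lower at 72 h. Lrpprc, which stabilises mitochondrial mRNAs, was lower in day 7 myotubes than in day 0 myoblasts and higher with dexamethasone than with vehicle at both times. Of 22 aminoacyl-tRNA synthetases and related enzymes, 5 were higher and 8 lower in day 7 myotubes than in day 0 myoblasts, 1 higher and 1 lower with dexamethasone at 24 h, and 3 higher and 2 lower at 72 h. The 22 include Gars1 and Kars1, whose genes also encode the cytosolic enzymes, and Kars1 was among the 3 higher at 72 h. Of 9 regulators of mitochondrial biogenesis, 2 were higher and 6 lower in day 7 myotubes than in day 0 myoblasts, 4 higher and 0 lower with dexamethasone at 24 h, and 4 higher and 0 lower at 72 h. Nrf1, the factor whose core was searched above, had 14.4 TPM in day 7 myotubes, against 24.8 TPM in day 0 myoblasts. Ppargc1a, a coactivator of mitochondrial genes, had 1.05 TPM with dexamethasone, against 0.291 TPM with vehicle at 24 h, and 1.64 TPM with dexamethasone, against 0.646 TPM with vehicle at 72 h, and was called higher at both times. It was also among the 2 higher in differentiation, at 0.321 TPM in day 7 myotubes, against 0.113 TPM in day 0 myoblasts. Such low levels leave the differences of Ppargc1a uncertain. The mitochondrial rRNA mt-Rnr1 was higher in day 7 myotubes (483 TPM) than in day 0 myoblasts (253 TPM), and was not called with dexamethasone. The other mitochondrial rRNA, mt-Rnr2, was higher with dexamethasone at 72 h, with 1500.5 TPM, against 876 TPM with vehicle. Selection of polyadenylated RNA leaves the levels of both uncertain.

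Transcript length was set against the differences. The longest annotated transcript had a median of 1866.5 bases for the 78 genes and 3121 bases for the 16214 tested genes with a length. Across genes, Spearman's rho between length and difference was -0.13 for the 78 genes and -0.19 for all genes in differentiation. It was 0.28 for the 78 genes and 0.28 for all genes with dexamethasone at 24 h, and 0.33 and 0.09 at 72 h. For the response at 72 h minus that at 24 h it was -0.016 and -0.18, for 24 h vehicle minus day 7 -0.19 and -0.15, and for 72 h minus 24 h vehicle 0.25 and 0.46. Genes are not independent replicates, this relation was examined after the differences were seen, and its part in the counts was not tested.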

How the data were processed

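C2C12 RNA was sequenced as 24 stranded, polyadenylated libraries. The submitters' processing notes name Salmon, DESeq, kallisto 0.51.1 and the build GRCm39 without saying what each was used for. The authors deposited log2-scale normalised values, by a method not stated, and TPM values, which reach the same total in every library. Neither keeps depth, so no counting error can be given.

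Genes with 2 to the power of the value of at least 10 in at least 4 libraries (16257) entered a limma-trend fit (limma 3.58.1, R 4.3.3) of the deposited log2 values with 1 mean per group over all 24 libraries. Tests were two-sided, with Benjamini-Hochberg adjustment and a threshold of 0.05, and the code was tested on simulated data. Alternatives used log2(TPM + 0.1) of the 15250 genes with 0.5 TPM or more in 4 or more libraries, log2(TPM + 1), no filter, quantile normalisation, the replicate number as a block, only the compared groups, and leaving out each library. Same-numbered libraries deviated together for differentiation and for both dexamethasone comparisons (correlations of 0.12 to 0.39 over genes). Correlations between libraries of different number are not given, so pairing by replicate number was not tested. The main fit leaves replicate number out.

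Levels and ratios are of mean TPM. Names were matched by identifier to a GRCm38 annotation (48291 of 48544). Named members were those fixed for their role, the up to 6 largest calls per direction and comparison, and the 5 highest and 5 lowest by mean TPM. For the other lists, named genes came from the up to 3 largest calls per direction. Members and lists were chosen with earlier results of these data known. Subunit classes were corrected after the files were read, by removing Mrpl56, which no row names, and adding Mrps28. A split by bacterial homology is not reported, because the classes of some proteins were in doubt. The promoters shown, the second glucocorticoid pattern, Slc5a3, the exon overlaps and the length relation were chosen after values were seen. Deposited symbols are cut at a hyphen, which is why pseudogenes share them.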

Additional observations from a re-analysis of the deposited data

Results flagged for a closer look

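The 6 groups of 4 libraries were examined for the summed level and for 39 named members, 240 groups in all, for a highest or lowest library whose gap to its nearest neighbour took up most of the group's range, by Dixon's 95% limit for 4 values. There were 8 such values, in 6 libraries, and chance gives about 1 in 20 groups. They were Mrps18b in day 7 replicate 4 (63.4 TPM), Mrps6 in day 7 replicate 3 (56.5 TPM), Mrpl45 in dexamethasone 24 h replicate 1 (41.9 TPM), Mrpl53 in dexamethasone 72 h replicate 3 (124 TPM), and, in the 72 h vehicle group, Mrpl14, Mrpl44 and Mrpl57 in replicate 1 (223, 33.6 and 26.9 TPM) and Mrpl34 in replicate 3 (80.5 TPM).

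The dexamethasone response at 72 h differed from that at 24 h, by a test of the difference in limma, for Mrpl52 (0.39 on the deposited log2 scale), Mrpl42 (0.30), Mrps18b (0.29), Mrpl35 (0.27) and Mrpl10 (0.20). These are 5 of 78 genes, where 5.56% of all tested genes were called positive and 5.77% negative. Mrps18b, Mrpl35 and Mrpl10 were not called on log2(TPM + 0.1). None of the 5 was called without dexamethasone 24 h replicate 4, vehicle 24 h replicate 1 or dexamethasone 72 h replicate 4.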

How the results depend on the processing

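Apart from log2(TPM + 0.1), the settings below are given without the share of all genes called under them. Whether a changed count is particular to these genes was therefore not tested. The count of members higher in day 7 myotubes was 26 to 37 and of lower members 4 to 7 without 1 library. Lower members numbered 15 on each of the 3 TPM settings. With dexamethasone at 24 h, 5 to 35 members were lower and 1 higher without 1 library, 10 were lower on TPM without a filter, 8 without a filter on the deposited table and 8 with only the compared groups. At 72 h, 3 to 9 were higher and 0 to 1 lower without 1 library, 3 were higher and 1 lower with only the compared groups, and 3, 3 and 2 were lower on TPM with a pseudocount of 0.1, of 1 and without a filter. For the difference between responses, 0 to 13 were higher without 1 library, 3, 3 and 1 on these TPM settings, 1 without a filter, 1 with only the compared groups and 3 without both replicate 1 libraries at 72 h. Between 72 h and 24 h vehicle, 0 to 31 were lower without 1 library, 1, 1 and 0 on the TPM settings, 0 without a filter and 0 with only the compared groups. The cause of these changes was not tested. On log2(TPM + 0.1) the median of all genes was -0.12 for the difference between responses and 0.13 between the vehicle groups, against -0.00479 and 0.00275 on the deposited scale. Quantile normalisation moved no count by over 1.5 times.

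With the replicate number as a block, 34 members were higher and 6 lower in differentiation, 19 lower and 1 higher at 24 h, 5 higher at 72 h, 4 for the difference between responses, and 5 lower between the vehicle groups. Shares of all genes called with the block are not given. Same-numbered vehicle and day 7 libraries did not all deviate together (lowest correlation -0.014, and -0.25 between the vehicle groups), so those may share only a number. The block was nevertheless fitted over all 24 libraries.

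Of 118 called differences of named genes, none changed sign in 1881 values under alternatives, but calls were lost. Of the 118, 37 were not called with only the compared groups, 23 without a filter on the deposited table, 25, 25 and 39 on the TPM settings, 8 with quantile normalisation and 3 with the block. Without 1 library 782 values kept the call and 234 lost it, and without both replicate 1 libraries at 72 h 29 kept it and 10 lost it. Of 78 that were not called, 26 changed sign in at least 1 setting, 87 of 1204 values. At 24 h these included Mrpl38 (0.091, 0.089 and 0.091 on the TPM settings, between -0.0243 and 0.016 without 1 library) and Mrps18b (0.0311, 0.0307 and 0.0311 on the TPM settings). At 72 h, without 1 library, Mrpl28 lay between -0.00997 and 0.0659, Mrps15 between -0.00234 and 0.0822, Mrps18a between -0.0392 and 0.0248, Mrps18c between -3.86e-05 and 0.0774 and Mrps28 between -0.145 and 0.00254, and Mrps18a was 0.00618 without both replicate 1 libraries. Depth is unknown, so no detection limit is given.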
